A study of Mus musculus with 18 samples.

Results

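Forelimb buds of Esco2 mutant mouse embryos at embryonic day E11.5 were compared with forelimb buds of control embryos 1 day younger, at E10.5. The comparison takes the 3 libraries labelled mutant, E11.5 and the 3 labelled control, E10.5, which makes 6 of the 18 libraries of the series. The mutants were Esco2fl/fl;Prrx1-CreTg/0, which means that both Esco2 alleles were flanked by loxP sites and that one copy of a Prrx1-Cre transgene was present. Controls were Esco2fl/fl and carried no Cre, so effects of Cre itself and of Esco2 loss cannot be told apart. The Prrx1 enhancer drives Cre in limb bud mesenchyme, whereas limb ectoderm, blood cells and the muscle precursors that migrate into the bud come from other lineages. The other 12 libraries, 3 for each genotype and stage combination of control E9.5, control E11.5, mutant E9.5 and mutant E10.5, served to estimate the spread and to place the 6 libraries on a time axis. Whether replicate libraries represent different embryos is not stated in the labels, so each p-value reflects the spread among the libraries at hand, which may be technical.

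A mutant limb bud that is merely late would resemble a younger control limb bud, whereas a gene that is abnormal at any age would still differ from it. The stage-shifted comparison therefore asks which genes of the E11.5 mutants sit at the level of E10.5 controls and which do not. ESCO2 is an acetyltransferase that modifies the SMC3 subunit of cohesin during DNA replication and so helps to hold sister chromatids together. Cells that divide without proper cohesion acquire DNA damage, which stabilises the transcription factor p53; p53 then activates genes for cell cycle arrest, DNA repair and cell death. In the limb bud, mesenchyme under the apical ectodermal ridge proliferates and is patterned along the proximal-distal axis by Hox, Meis and Shox2 genes and along the anterior-posterior axis by Sonic hedgehog, and from E10.5 onward SOX9-positive cells condense into cartilage.

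The 6 libraries held 38805623 to 50213799 counted fragments, and the 18 libraries held 35034237 to 56230058. Transcripts of haemoglobin genes made up 0.294% to 0.600% of counts in the E10.5 controls and 0.388% to 0.943% in the E11.5 mutants, and transcripts encoded by mitochondrial DNA made up 0.531% to 0.758% and 0.695% to 0.995%. Tbx5, which marks the forelimb, and Prrx1, which marks limb mesenchyme, were present in all 6 libraries, and their values are given with the patterning genes. One E9.5 control (replicate 1) differed from its group most in the counts over genes, with a chi-square per degree of freedom of 246 and 308 against the other replicates, and one E10.5 mutant (replicate 3) had the highest haemoglobin share, 1.96%. Neither belongs to the 6 libraries, but both enter the estimate of the spread.

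Esco2 itself (chromosome 14, 65819038 to 65833994 in mm10) was at 29.4, 33.6 and 28.1 CPM in the E10.5 controls and 22.5, 23.8 and 22.6 CPM in the E11.5 mutants, where CPM stands for counts scaled to the size of each library. The mutant libraries lay below the control libraries, but the log2 difference of -0.41 ± 0.14 (SE, adjusted p = 0.0915) did not pass the threshold of adjusted p = 0.05. With the spread estimated from the 6 libraries alone it passed, at -0.40 and adjusted p = 0.0213. The labels do not say which exons are deleted, so counts over the whole gene may include transcript outside the deleted part and transcript from cells without Cre. Against E11.5 controls, at 30.9, 20.6 and 30.9 CPM, the log2 difference was -0.26 (adjusted p = 0.238). Of the 15 cohesin genes and regulators listed, all 15 had a 95% interval within 2-fold and 1 fell, Hdac8, the SMC3 deacetylase. Hdac8 was at 18.1, 20.03 and 22.2 CPM in the E10.5 controls and 11.4, 14.4 and 15.3 CPM in the E11.5 mutants, a log2 difference of -0.55 ± 0.14 (SE, adjusted p = 0.0197); leaving out control replicate 2, control replicate 3 or mutant replicate 1 ended the call, at adjusted p of 0.0553, 0.0999 and 0.109.

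Of 20118 genes tested, 1204 (5.98%) were higher and 741 (3.68%) were lower in E11.5 mutants than in E10.5 controls, at an adjusted p under 0.05 in the quasi-likelihood test of edgeR. Together they were 9.67% of the genes, and 4370 genes had an unadjusted p under 0.05. At least 2-fold changes were counted for 870 of the higher and 252 of the lower genes. For 11418 genes (56.8%) the 95% interval of the difference lay within 2-fold in either direction, which is the definition of "alike" used from here on. With a filter at a mean log2 CPM of 1, 10674 of 12588 genes were alike. Counts of alike members in the lists below stand beside these shares. The 3 mutant libraries lay wholly above or below the 3 controls for 34.5% of genes, above for 17.2% and below for 17.3%. These are tissue samples, in which fewer cells of a type and less RNA per cell cannot be told apart. Set against E11.5 controls, the same mutant libraries had 1613 higher and 1916 lower genes (8.02% and 9.52%), and E11.5 controls against E10.5 controls had 1328 higher and 582 lower (6.6% and 2.89%, 9.49% in all). The excess of lower genes in the stage-matched comparison turned round with the length trend removed (2176 higher and 1973 lower) and with limma on the authors' log2 FPKM (1735 and 1590); without mutant replicate 3 the counts were 1058 and 1155. Between control stages, leaving out control replicate 1, 2 or 3 gave 591, 879 and 710 higher and 212, 344 and 260 lower genes. The last of these shares the E10.5 controls, and the stage-matched one shares the E11.5 mutants, so calls are given side by side and not overlapped. For the mutants against E10.5 controls, leaving out control replicate 1 or 3 lowered the higher count to 690 and 749; leaving out control replicate 1, 2 or 3 or mutant replicate 3 lowered the lower count to 444, 447, 434 and 490.

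**Figure D1:**
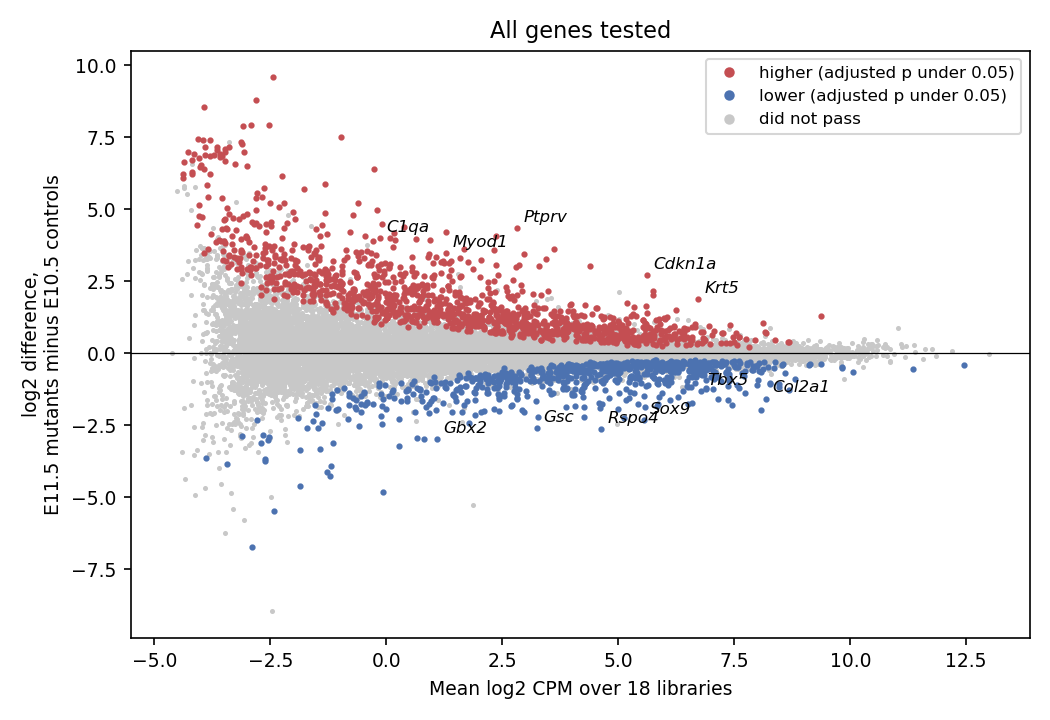
Log2 difference of E11.5 mutants from E10.5 controls (vertical axis) against mean log2 CPM over 18 libraries (horizontal axis), 1 point per gene for 20118 genes. Red points are the 1204 higher and blue points the 741 lower genes; Cdkn1a at 2.70 and Col2a1 at -1.57 are among the well expressed genes that changed.

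The 28 gene lists examined had very different outcomes. In the p53 targets 23 of 32 members rose and 1 fell. All 18 macrophage markers and 15 of 21 muscle markers rose. Of 23 cartilage genes 9 fell and 3 rose, of 11 proximal limb genes 7 fell and none rose, and of 10 anterior limb genes 5 fell and 1 rose. None of 27 DNA replication genes and none of 25 mitosis genes was called in either direction, and at unadjusted p under 0.05 the same fit counted 4 and 7 of them. These shares stand against 5.98% higher and 3.68% lower among all genes.

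**Figure D2:**
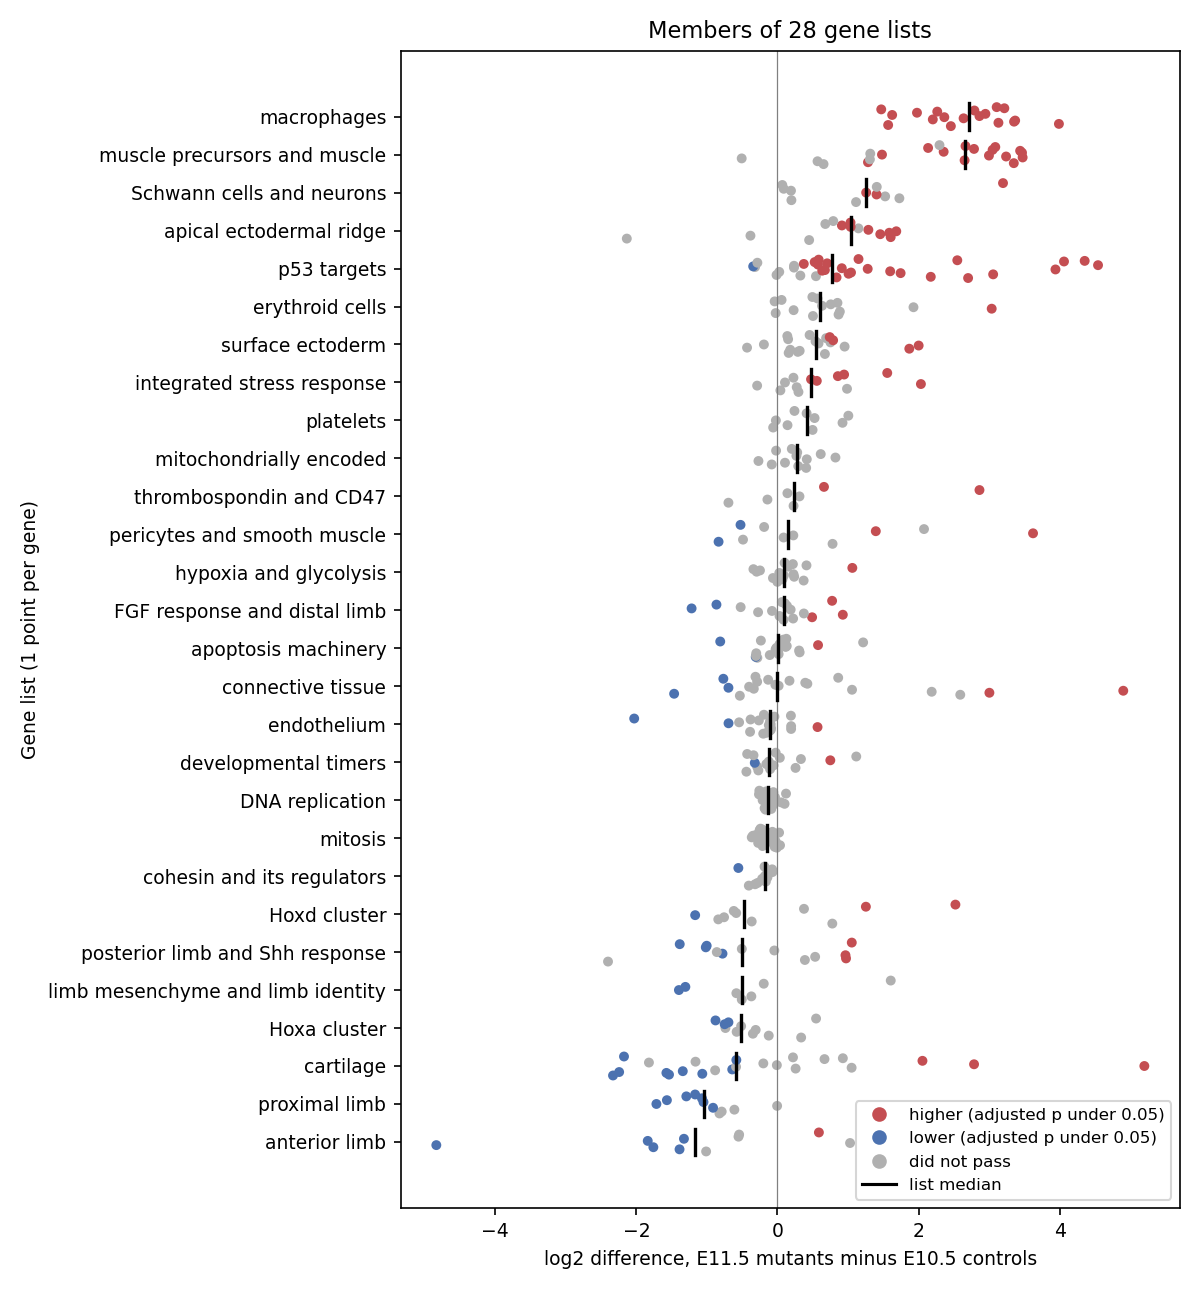
Log2 difference of E11.5 mutants from E10.5 controls (horizontal axis) for each member of 28 gene lists (vertical axis), 1 point per gene, with the list median as a black bar. Macrophage and muscle markers have medians of 2.72 and 2.65, DNA replication and mitosis genes cluster at -0.14 and -0.15, and anterior and proximal limb genes have medians of -1.17 and -1.05.

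A stage score placed each library between the mean of E9.5 controls (0) and the mean of E11.5 controls (1). It uses the 5080 genes that rose and the 4386 that fell from E9.5 to E11.5 in controls, 47.1% of the genes tested, in a contrast that shares no library with the E11.5 mutants or E10.5 controls. The E10.5 controls scored 0.567, 0.645 and 0.595 (mean 0.602 ± 0.040, SD, n = 3). The E11.5 mutants scored 0.714, 0.709 and 0.571 (mean 0.665 ± 0.081, SD, n = 3), so that 2 mutant libraries lay above the controls and replicate 3 lay among them. The lowest E11.5 control scored 0.934, above every mutant library. With stage genes restricted to at least 2-fold changes the mutant mean was 0.669, and without E9.5 control replicate 1 it was 0.648. The main axis of variation over all genes tested and 18 libraries held 39.2% of the variance. On that axis E10.5 controls were at 12.9, 28.1 and 19.7 and E11.5 mutants at 67.8, 67.3 and 39.4. E11.5 controls were at 76.7, 95.2 and 102.8, so every mutant library lay between the control stages.

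**Figure D3:**
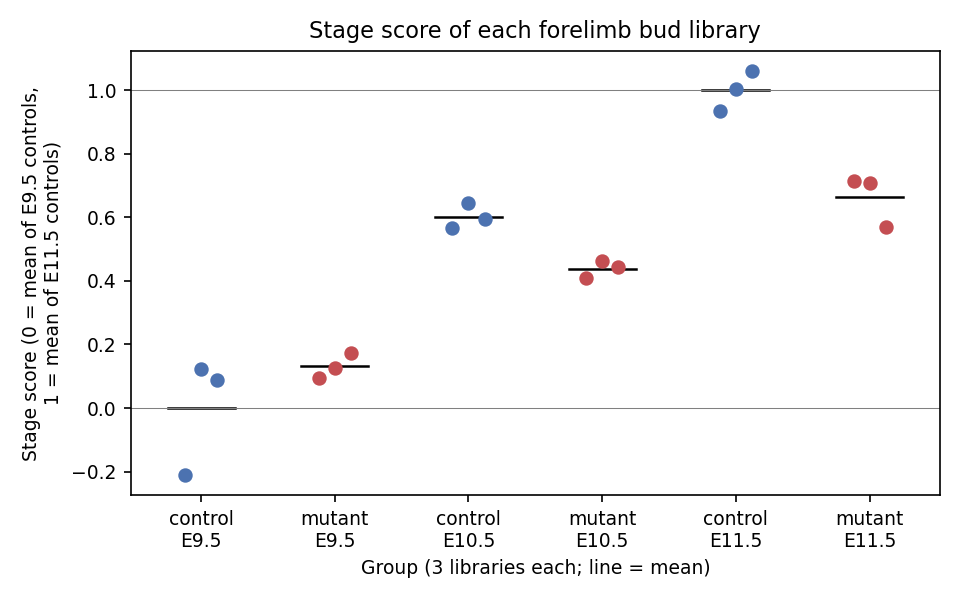
Stage score of each of the 18 libraries (vertical axis, 0 = mean of E9.5 controls, 1 = mean of E11.5 controls) by group (horizontal axis); points are libraries and bars are means of 3. Of the E11.5 mutants, replicates 1 and 2, at 0.714 and 0.709, lie above the E10.5 controls, at 0.567 to 0.645. Replicate 3, at 0.571, lies among them. All mutants lie below the E11.5 controls, whose lowest value is 0.934.

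The score averages over genes that did not all behave alike. Of the 5080 genes that rise in controls, 54.2% were alike between E11.5 mutants and E10.5 controls, with a median log2 difference of -0.01, but 661 (13%) were higher and 382 (7.52%) were lower. Of the 4386 genes that fall in controls, 75.6% were alike, 136 were higher and 126 lower, and the median was 0.06. Against E11.5 controls the median of the rising genes was -0.39 and that of the falling genes 0.31, and in E11.5 controls against E10.5 controls the medians were 0.42 and -0.26. Among the 3008 genes that rise at least 2-fold in controls, 566 were higher and 209 lower in E11.5 mutants than in E10.5 controls (median 0.26). Of these 3008 genes 29.4% were alike, and 38.2% of the 1538 genes that fall at least 2-fold, beside 56.8% of all genes tested. A wide interval also keeps a gene from being alike, and 2233 of the 3008 and 1399 of the 1538 were not called in either direction. Over all genes tested, the mutant mean lay nearer to E10.5 than to E11.5 controls for 59.7%, and for the rising and falling stage genes for 64.3% and 76.9%.

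Genes already higher in mutants at E9.5 formed another group. In the E9.5 libraries, 36 genes were higher in mutants than in controls (0.179% of all tested). These libraries are not in the shifted contrast, but both contrasts rest on the same estimate of the spread. Of these 36, 34 were higher in E11.5 mutants than in E10.5 controls and none was lower, with a median log2 difference of 3.19. The set was chosen on other libraries but on the same mutant genotype, and is described here without a test. The contrast of E10.5 mutants with E9.5 controls, 1 day earlier, differed from the present one for 5.28% of genes tested and for 8 of 21 anchor genes.

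The p53 targets differed from control limb buds of both stages: of 32, 23 rose and 1 fell against E10.5 controls, and 23 were higher and 2 lower against E11.5 controls. Cdkn1a (chromosome 17, 29090976 to 29100727, mm10), which encodes the cell cycle inhibitor p21, was at 23.5, 24.9 and 20.9 CPM in the E10.5 controls and 152, 135 and 164 CPM in the E11.5 mutants. Every mutant library lay above every control library of both stages, and the log2 difference from E10.5 controls was 2.70 ± 0.14 (SE, adjusted p = 7.75e-09). E11.5 controls were at 31.4, 35.8 and 36.3 CPM, for a log2 difference of 2.12 (adjusted p = 1.31e-07) in the stage-matched comparison. Ccng1 (chromosome 11, 40748552 to 40755311), the gene for cyclin G1, was at 25.9, 26.5 and 23.8 CPM in the E10.5 controls and 103, 95.9 and 145 CPM in the E11.5 mutants. E11.5 controls had 26.9, 27.6 and 29.4 CPM, so every mutant library lay above both sets of controls. The log2 difference from E10.5 controls was 2.17 ± 0.17 (SE, adjusted p = 1.27e-06).

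Mdm2 (chromosome 10, 117688875 to 117710758), which encodes the ubiquitin ligase that degrades p53, was at 66.9, 62.7 and 68.2 CPM in the E10.5 controls and 113, 110.4 and 129.9 CPM in the E11.5 mutants, a log2 difference of 0.84 ± 0.09 (SE, adjusted p = 1.39e-05). Ptprv, a phosphatase gene that is a p53 target in mouse, was at 0.964, 1.68 and 1.97 CPM in the E10.5 controls and 26.2, 23.8 and 44.8 CPM in the E11.5 mutants. The groups did not overlap and the log2 difference was 4.36 ± 0.31 (SE, adjusted p = 4.69e-07). Inka2 was at 0.984, 1.44 and 1.04 CPM in the E10.5 controls and 18.1, 18.6 and 21.2 CPM in the E11.5 mutants, a log2 difference of 4.06 ± 0.22 (SE, adjusted p = 7.95e-09), while E11.5 controls were at 3.05, 4.01 and 4.70 CPM. Trp53, the gene for p53 itself, was at 257, 249 and 264 CPM in the E10.5 controls and 255, 256 and 258 CPM in the E11.5 mutants, and its log2 difference of 0.00 ± 0.10 had a 95% interval of -0.21 to 0.20.

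Other p53 targets, chosen for naming after their values were seen, are given by role. Among receptors of the TNF receptor family, Eda2r was at 2.69, 2.44 and 1.47 CPM in the E10.5 controls and 15.3, 16.3 and 23.3 CPM in the E11.5 mutants. Its log2 difference was 3.06 ± 0.32 (SE, adjusted p = 1.39e-05), and E11.5 controls stood at 1.41, 0.896 and 0.621 CPM. Fas, the death receptor gene, rose by 3.94 ± 0.38 and Tnfrsf10b, a TRAIL receptor gene, by 0.91 ± 0.13. Among stress and arrest genes, Sesn2 rose by 1.598 ± 0.14, Phlda3 by 1.75 ± 0.19, Ddit4l by 2.55 ± 0.23, Btg2 by 1.28 ± 0.14 and Perp by 1.15 ± 0.20 on the log2 scale, each without overlap between the groups. The proapoptotic BH3 gene Pmaip1 was at 42.4, 51.3 and 64.2 CPM in the E10.5 controls and 44.6, 60.0 and 51.9 CPM in the E11.5 mutants, with overlapping libraries and a 95% interval of -0.47 to 0.44. Bbc3, which encodes PUMA, was at 8.41, 8.89 and 11.2 CPM in the E10.5 controls and 12.3, 11.04 and 12.4 CPM in the E11.5 mutants, with overlap, and Bax at 55.6, 53.3 and 60.8 CPM in the E10.5 controls and 78.8, 92.4 and 76.6 CPM in the E11.5 mutants. Their log2 differences of 0.33 ± 0.19 (SE, adjusted p = 0.364) and 0.55 ± 0.19 (SE, adjusted p = 0.0933) did not pass, although without E9.5 control replicate 1 and E10.5 mutant replicate 3 the adjusted p of Bax was 0.00064. Xpc, a nucleotide excision repair gene, was the 1 member that fell, with a log2 difference of -0.34 ± 0.09 (SE, adjusted p = 0.0273); leaving out any of the 6 libraries except mutant replicate 3 gave adjusted p values of 0.0575 to 0.138. For the p53 list as a whole the count of members higher ranged from 21 to 25 over all settings tried.

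The reference holds promoters for 23 of the 32 p53 targets. The p53 half-site consensus, a motif of 10 letters that reads the same on both strands, occurred within the 250 bases before the transcription start in 7 of these 23 (30.4%), in 7.18% of all 27025 promoters of the reference and in 6.16% of the 12680 promoters of genes tested. The promoters of Cdkn1a, Ccng1 and Mdm2 are printed as those of the p53 targets among the 21 anchor genes, and each holds a half-site. Ptprv and Inka2 had larger differences; the promoter of Inka2 has no half-site, and none of Ptprv was used here. The sequences run 5′ to 3′ on the gene's strand with the half-sites in capitals. They lie at chr17:29090729-29090978 (Cdkn1a, plus strand), chr11:40755287-40755536 (Ccng1, minus strand) and chr10:117710759-117711008 (Mdm2, minus strand), from RefSeq on GRCm38.p6.
Cdkn1a: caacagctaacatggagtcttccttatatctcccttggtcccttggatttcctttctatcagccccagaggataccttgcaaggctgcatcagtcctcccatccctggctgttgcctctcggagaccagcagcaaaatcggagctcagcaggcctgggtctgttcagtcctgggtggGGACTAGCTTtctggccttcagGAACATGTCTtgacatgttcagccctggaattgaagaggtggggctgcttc
Ccng1: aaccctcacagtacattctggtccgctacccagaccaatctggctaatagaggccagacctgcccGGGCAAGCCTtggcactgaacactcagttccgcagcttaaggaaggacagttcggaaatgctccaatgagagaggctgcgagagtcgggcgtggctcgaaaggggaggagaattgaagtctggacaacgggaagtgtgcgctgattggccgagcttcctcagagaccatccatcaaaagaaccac
Mdm2: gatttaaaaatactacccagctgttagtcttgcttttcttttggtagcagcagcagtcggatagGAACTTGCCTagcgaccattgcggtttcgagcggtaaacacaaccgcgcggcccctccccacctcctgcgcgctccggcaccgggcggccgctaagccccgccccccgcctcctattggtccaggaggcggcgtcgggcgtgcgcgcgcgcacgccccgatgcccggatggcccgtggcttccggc
The Cdkn1a promoter held 2 half-sites and the others 1 each. A match is a description of letters, and the measured libraries hold no data on p53 binding. Inka2, Sesn2 and Fas rose too and had no match in this window.

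**Figure D4:**
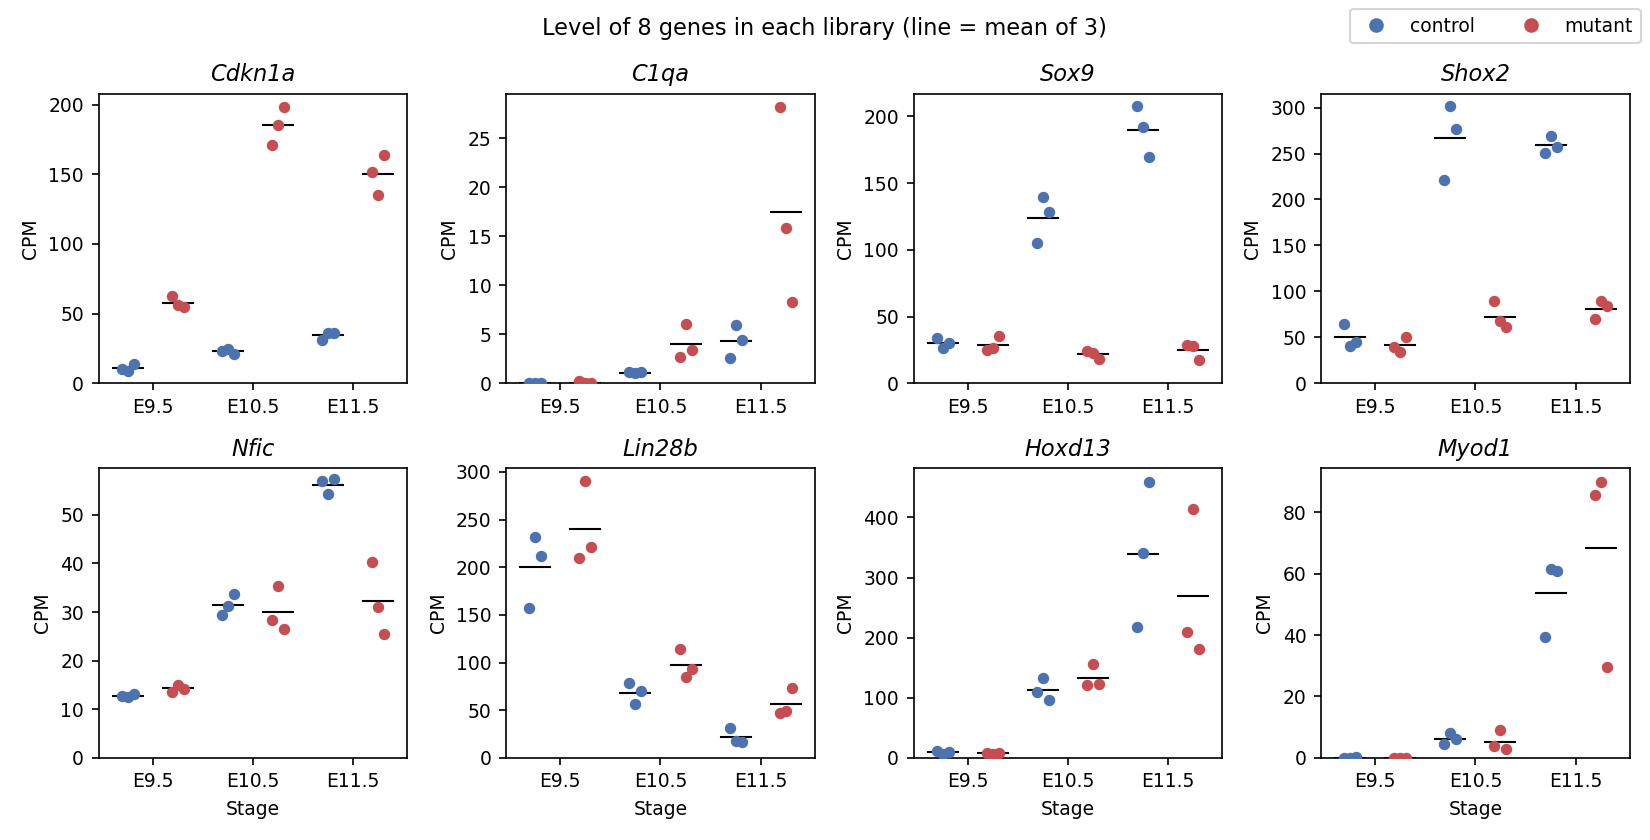
Level in CPM (vertical axis) of 8 genes in each of 18 libraries by stage (horizontal axis), controls in blue and mutants in red, with the mean of 3 as a bar. Cdkn1a and C1qa are above both control stages in E11.5 mutants, Sox9 and Shox2 below both, Nfic and Lin28b near the E10.5 controls, and Hoxd13 and Myod1 near the E11.5 controls. Nfic was named for its small difference from E10.5 controls.

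Of 22 genes of the general apoptosis machinery, 1 rose and 2 fell, 20 were alike, and the list median was 0.01. Bmf, a BH3-only gene, fell, at 62.4, 79.0 and 59.1 CPM in the E10.5 controls and 41.2, 37.8 and 35.3 CPM in the E11.5 mutants, a log2 difference of -0.81 ± 0.18 (SE, adjusted p = 0.00698). Bid was higher by 0.58 ± 0.14 (SE, adjusted p = 0.0117), but leaving out control replicate 1 or mutant replicate 3 gave an adjusted p of 0.0519 and 0.0542. Bak1 and Bcl2l1, at 0.01 and -0.02, were alike.

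In the integrated stress response, by which cells adapt amino acid supply and translation to stress through ATF4, 6 of 13 genes rose and none fell. Atf3, a stress-induced transcription factor gene, was at 2.21, 1.64 and 1.77 CPM in the E10.5 controls and 8.50, 7.22 and 7.36 CPM in the E11.5 mutants. E11.5 controls were at 1.38, 1.66 and 3.08 CPM, so Atf3 was above both control stages, with a log2 difference of 2.03 ± 0.26 (SE, adjusted p = 0.000113) from the younger one. Slc7a5, an amino acid transporter gene, rose by 0.86 ± 0.15 (SE, adjusted p = 0.00106) and Psat1, of serine synthesis, by 0.56 ± 0.11 (SE, adjusted p = 0.00294), while Atf4 and Asns had log2 differences of 0.30 ± 0.11 and 0.27 ± 0.14 that did not pass. The count of 6 fell to 3 without control replicate 1 or without mutant replicate 1.

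All 27 DNA replication genes and all 25 mitosis genes were alike between E11.5 mutants and E10.5 controls. Over all genes, 10674 of 12588 were alike with a filter at a mean log2 CPM of 1. The mutant mean was nearer to E10.5 than to E11.5 controls for 17 of the 27 replication genes and for 9 of the 25 mitosis genes, beside 59.7% of all genes. The mitosis list had a median of -0.15 against E10.5 controls and 0.03 against E11.5 controls, and 12 of its 25 genes lay wholly below the E10.5 controls. No gene of either list was called by edgeR, 4 and 7 had an unadjusted p under 0.05, and DESeq2 called 2 mitosis genes lower; without E9.5 control replicate 1 and E10.5 mutant replicate 3 edgeR called 3 replication and 5 mitosis genes lower, and without mutant replicate 3 it called 1 mitosis gene lower. Cdk1, Gins1 and Aurka are named for their small differences. Cdk1, the mitotic kinase gene, was at 164, 168 and 164 CPM in the E10.5 controls and 165, 168 and 161 CPM in the E11.5 mutants, with overlapping libraries and a 95% interval of -0.28 to 0.27. E11.5 controls were at 138, 130.4 and 125 CPM. Gins1, a subunit of the replicative helicase, was at 42.8, 46.6 and 44.1 CPM in the E10.5 controls and 46.2, 46.1 and 46.2 CPM in the E11.5 mutants, and Aurka, of the spindle, at 131, 132 and 131 CPM in the E10.5 controls and 116, 132 and 139 CPM in the E11.5 mutants. Top2a was at 771, 814 and 707 CPM in the E10.5 controls and 479, 651 and 651 CPM in the E11.5 mutants, with mutant libraries below the control libraries and a log2 difference of -0.36 ± 0.13 (SE, adjusted p = 0.11). Without E9.5 control replicate 1 and E10.5 mutant replicate 3 the fit called Top2a at adjusted p = 0.0336.

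The developmental timers are genes whose levels fall or rise with embryonic age in many tissues. The RNA-binding proteins LIN28A, LIN28B, TRIM71 and IGF2BP1 and the chromatin proteins HMGA1 and HMGA2 decline, and NFI and EBF transcription factors increase. In controls from E10.5 to E11.5, 6 of these 16 genes rose and 8 fell. Between E11.5 mutants and E10.5 controls 1 rose, 1 fell and 13 were alike, and against E11.5 controls the mutants had 6 higher and 6 lower.

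Lin28b (chromosome 10, 45376620 to 45486395, mm10) was at 78.0, 56.8 and 70.3 CPM in the E10.5 controls and 47.5, 49.2 and 73.4 CPM in the E11.5 mutants. These libraries overlap, whereas E11.5 controls had fallen to 31.7, 17.8 and 16.7 CPM. The log2 difference was -0.27 ± 0.23 (SE, adjusted p = 0.575) from E10.5 controls and 1.36 (adjusted p = 0.000925) from E11.5 controls. Nfic was at 29.4, 31.2 and 33.8 CPM in the E10.5 controls and 40.2, 31.0 and 25.5 CPM in the E11.5 mutants and at 57.0, 54.3 and 57.4 CPM in E11.5 controls, which made the log2 difference 0.03 ± 0.14 from the younger and -0.80 (adjusted p = 0.000785) from the same-stage controls. Ebf3, at 60.7, 70.0 and 61.2 CPM in the E10.5 controls and 76.6, 56.7 and 55.5 CPM in the E11.5 mutants, and Igf2bp1, at 581, 506 and 509 CPM in the E10.5 controls and 479, 510.5 and 548 CPM in the E11.5 mutants, also overlapped with E10.5 controls. E11.5 controls held 139, 149 and 159 CPM of Ebf3 and 458, 328 and 310.4 CPM of Igf2bp1. Nfic, Ebf3 and Igf2bp1 are named for their small differences from E10.5 controls, so their closeness to these controls follows from that choice.

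Not every timer stood at the younger level. Nfia was at 16.8, 20.9 and 17.0 CPM in the E10.5 controls and 31.7, 34.3 and 26.0 CPM in the E11.5 mutants, between the E10.5 and the E11.5 controls, the latter at 45.6, 62.2 and 76.3 CPM. Its log2 difference was 0.75 ± 0.18 (SE, adjusted p = 0.0121) from E10.5 controls, and the stage-matched difference had an adjusted p of 0.00105; without control replicate 1, control replicate 3 or mutant replicate 2 the former had an adjusted p of 0.0636, 0.0604 and 0.0553. Igf2bp3 was the 1 timer that fell, by 0.32 ± 0.09 (SE, adjusted p = 0.0328); leaving out any library except mutant replicate 3 gave adjusted p values of 0.0689 to 0.147. Hmga2 was at 1227, 1160.5 and 1078 CPM in the E10.5 controls and 946, 814 and 1078 CPM in the E11.5 mutants and at 931, 577 and 612 CPM in E11.5 controls. It was alike to the E10.5 controls, and its difference from E11.5 controls, 0.42 (adjusted p = 0.0912), did not pass either.

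**Figure D5:**
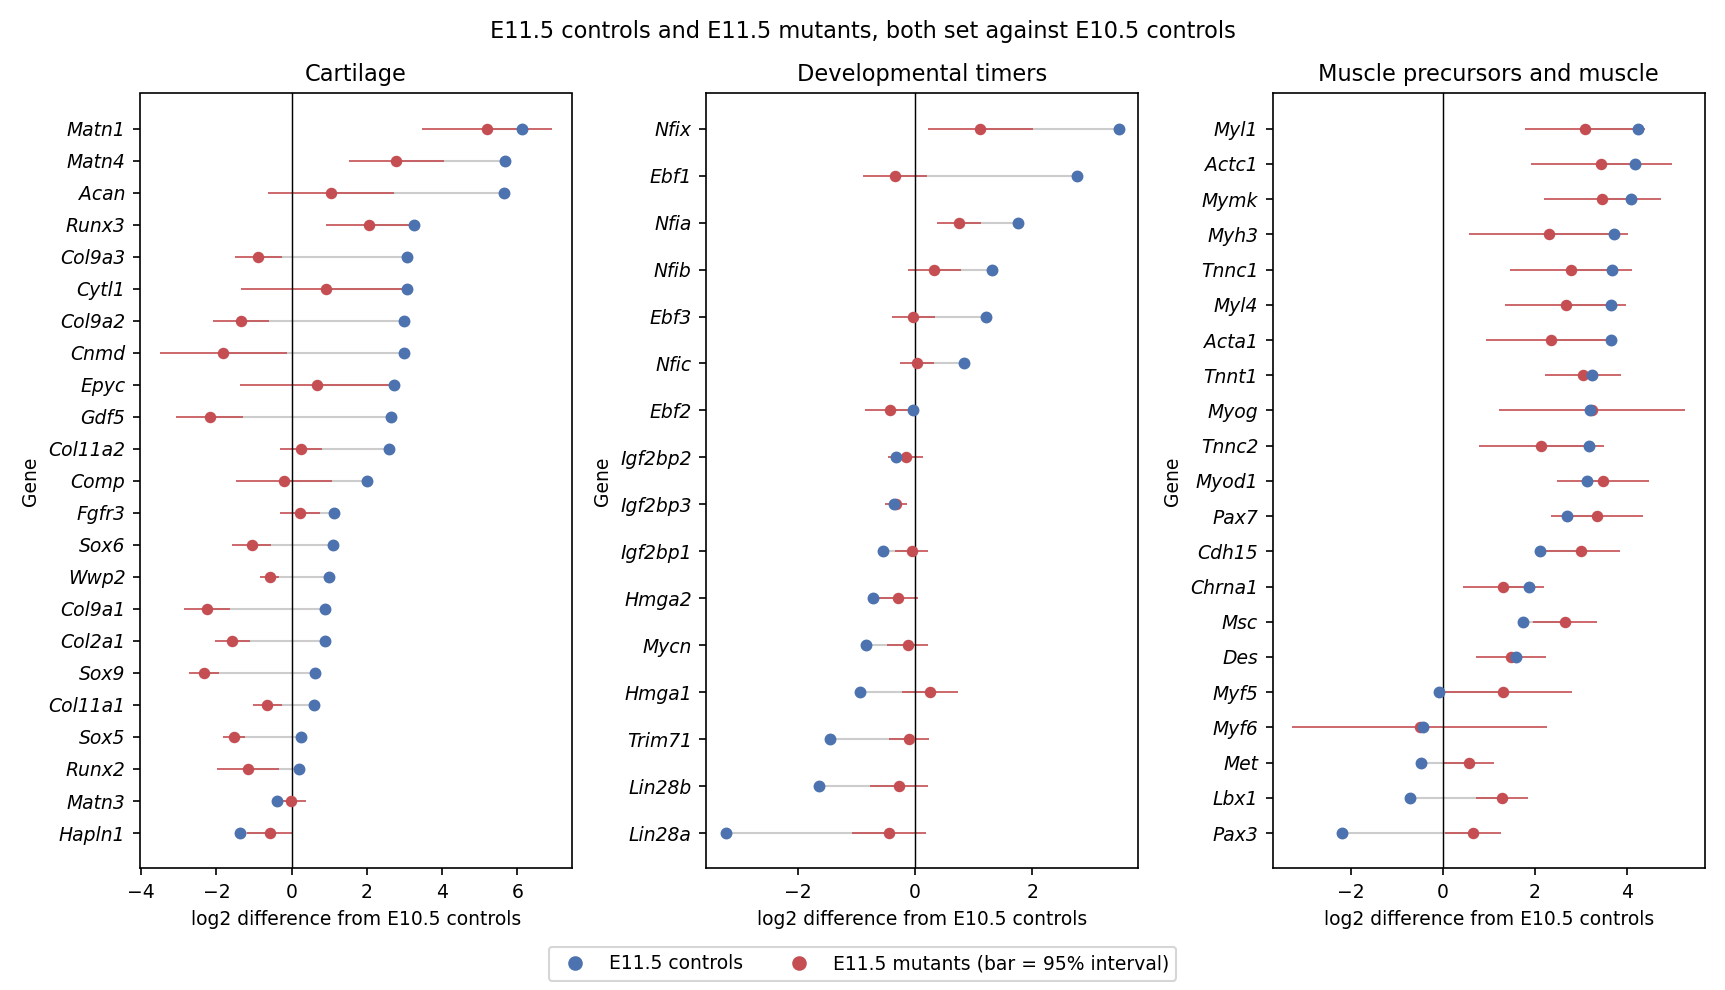
Log2 difference from E10.5 controls (horizontal axis) of E11.5 controls (blue) and of E11.5 mutants (red, bar = 95% interval) for each cartilage gene, developmental timer and muscle gene (vertical axes). Most timers of the mutants sit near 0, most muscle genes sit with the E11.5 controls, and Sox9, Col2a1 and Col9a1 lie below 0 on the side opposite to the E11.5 controls.

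Of 23 cartilage genes 9 fell and 3 rose against E10.5 controls. Sox9 (chromosome 11, 112782224 to 112787760, mm10), the transcription factor gene that commits cells to cartilage, was at 105, 139 and 128 CPM in the E10.5 controls and 28.5, 27.9 and 17.6 CPM in the E11.5 mutants. The groups lay far apart, and the log2 difference was -2.33 ± 0.19 (SE, adjusted p = 1.47e-06). E11.5 controls were higher still, at 208, 192 and 169.7 CPM, and the stage-matched log2 difference was -2.94 (adjusted p = 1.85e-07). Sox5, its partner, was at 33.7, 40.0 and 37.2 CPM in the E10.5 controls and 10.52, 13.7 and 13.97 CPM in the E11.5 mutants, a log2 difference of -1.54 ± 0.14 (SE, adjusted p = 5.8e-06).

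Col2a1 (chromosome 15, 97975602 to 98004695), the gene for the main collagen of cartilage, was at 383, 481 and 424 CPM in the E10.5 controls and 115, 135 and 184 CPM in the E11.5 mutants. It fell by 1.57 ± 0.22 (SE, adjusted p = 0.000244) on the log2 scale against E10.5 controls, while in controls it rose by 0.89 (adjusted p = 0.0172) over the same day. Col9a1 was at 112, 136 and 118 CPM in the E10.5 controls and 20.1, 42.0 and 15.0 CPM in the E11.5 mutants, a log2 difference of -2.24 ± 0.29 (SE, adjusted p = 9.9e-05). Gdf5, a growth factor gene of condensations and joints, was at 2.79, 4.499 and 3.65 CPM in the E10.5 controls and 0.341, 1.33 and 0.710 CPM in the E11.5 mutants, a log2 difference of -2.17 ± 0.42 (SE, adjusted p = 0.00323), whereas E11.5 controls had reached 13.7, 28.7 and 25.3 CPM.

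Other cartilage genes were not separated from the younger controls. Acan, which encodes aggrecan, was at 0.0820, 0.0886 and 0.319 CPM in the E10.5 controls and 0.0487, 0.732 and 0.220 CPM in the E11.5 mutants, and at 3.09, 13.99 and 8.30 CPM in E11.5 controls. The first groups overlapped (log2 difference 1.05 ± 0.79, adjusted p = 0.506), whereas the stage-matched log2 difference was -4.60 (adjusted p = 0.000414). Col11a2 was at 5.08, 4.34 and 5.78 CPM in the E10.5 controls and 8.01, 5.76 and 4.43 CPM in the E11.5 mutants and 24.4, 40.8 and 26.9 CPM in E11.5 controls, with log2 differences of 0.26 ± 0.27 and -2.34 (adjusted p = 2.53e-05). Fgfr3 was likewise alike to E10.5 controls, at 0.22 ± 0.26. The 3 members that rose were Matn4, Matn1 and Runx3. Matn4, a matrilin gene, was at 0.226, 1.53 and 0.399 CPM in the E10.5 controls and 4.89, 6.13 and 3.69 CPM in the E11.5 mutants and at 20.2, 51.9 and 36.2 CPM in E11.5 controls, so that mutants lay between the control stages (log2 difference 2.79 ± 0.59, adjusted p = 0.00604). Runx3, a transcription factor gene, rose by 2.06 ± 0.55 (SE, adjusted p = 0.0225); leaving out any of the 6 libraries except mutant replicate 1 gave adjusted p values of 0.0566 to 0.103. For the whole list the median was -0.59 against E10.5 controls, -2.16 against E11.5 controls and 2.01 between the control stages. For 20 of 23 members the mutant mean lay nearer to E10.5 than to E11.5 controls, beside 59.7% of all genes. That count includes genes below both control stages, such as Sox9 and Gdf5, so it is no count of members at the younger level.

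Of 20 connective tissue genes 2 rose, 3 fell and 9 were alike, with a median of -0.01; against E11.5 controls 14 were lower and none higher. Col5a1 was at 144, 149.6 and 129 CPM in the E10.5 controls and 157, 145 and 127 CPM in the E11.5 mutants and 244, 254 and 333 CPM in E11.5 controls. Col5a2, at 122, 114 and 101 CPM in the E10.5 controls and 112, 116 and 102 CPM in the E11.5 mutants, overlapped in the same way. Dcn, the decorin gene, was at 0.595, 0.864 and 1.47 CPM in the E10.5 controls and 15.3, 4.12 and 4.21 CPM in the E11.5 mutants, a log2 difference of 3.00 ± 0.56 (SE, adjusted p = 0.00257), and E11.5 controls were at 8.13, 11.4 and 14.2 CPM. Decorin thus lay above every E10.5 control library, with 1 mutant library above and 2 below the E11.5 controls. Osr2, a transcription factor gene of tendon and joint, was at 22.5, 33.7 and 37.6 CPM in the E10.5 controls and 14.7, 14 and 5.21 CPM in the E11.5 mutants, a log2 difference of -1.46 ± 0.33 (SE, adjusted p = 0.00811). The Osr2 call was lost with the 6 libraries alone. Eln, the elastin gene, was at 14.3, 16.9 and 15.8 CPM in the E10.5 controls and 9.30, 9.54 and 8.83 CPM in the E11.5 mutants (log2 difference -0.77 ± 0.14, adjusted p = 0.00244) and at 28.3, 32.7 and 33.8 CPM in E11.5 controls, so that both genes were below both control stages. Col1a2 also fell, by 0.69 ± 0.20 (SE, adjusted p = 0.0394), a call lost on leaving out any library except mutant replicate 1 (adjusted p = 0.0666 to 0.170).

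Of 7 genes of limb mesenchyme and limb identity 2 fell and none rose, and 5 fell without E9.5 control replicate 1 and E10.5 mutant replicate 3. Tbx5 (chromosome 5, 119832668 to 119885219, mm10), the transcription factor gene that initiates the forelimb, was at 148, 165 and 166 CPM in the E10.5 controls and 53.6, 80.0 and 60.2 CPM in the E11.5 mutants. Every mutant library was below every control library of E10.5, with a log2 difference of -1.30 ± 0.14 (SE, adjusted p = 1.51e-05), and of E11.5, at 233, 252 and 243 CPM. Pdgfra, a mesenchymal receptor gene, was at 380.1, 406 and 344 CPM in the E10.5 controls and 149, 152 and 128 CPM in the E11.5 mutants, a log2 difference of -1.40 ± 0.20 (SE, adjusted p = 0.000279). Twist2 and Prrx2, at -0.58 ± 0.21 and -0.51 ± 0.20, did not pass, although their libraries lay below those of the controls. Summed over the 7 mesenchyme and limb identity markers, levels were 870 to 929 CPM in E10.5 controls, 444 to 517 CPM in E11.5 mutants and 1099 to 1160 CPM in E11.5 controls. This sum moves with the patterning and cartilage genes described here, and its part in those results was not tested.

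Of 11 proximal patterning genes 7 fell and none rose (median -1.05). Against E11.5 controls 5 were lower and none higher, with a median of -0.09. Between the control stages 4 fell and 1 rose, with a median of -0.42. The mutant mean lay nearer to E10.5 than to E11.5 controls for 4 of the 11, beside 59.7% of all genes. Shox2 (chromosome 3, 66971727 to 66981771, mm10), needed for the upper arm, was at 222, 302 and 277 CPM in the E10.5 controls and 69.9, 89.9 and 83.9 CPM in the E11.5 mutants. E11.5 controls had 250.5, 269 and 257 CPM, so mutants were below both stages, with a log2 difference of -1.72 ± 0.19 (SE, adjusted p = 2.46e-05) from the younger. Tbx18, at 69.9, 106 and 83.5 CPM in the E10.5 controls and 21.6, 35.6 and 30.4 CPM in the E11.5 mutants, fell by 1.57 ± 0.20 (SE, adjusted p = 0.000114). Prrx1, at 533, 551 and 528 CPM in the E10.5 controls and 219, 259 and 240.3 CPM in the E11.5 mutants, fell by 1.17 ± 0.16 (SE, adjusted p = 0.000167) and is the gene whose regulatory sequence drives the Cre transgene. Pkdcc was at 422, 368 and 392 CPM in the E10.5 controls and 223, 136 and 204 CPM in the E11.5 mutants (log2 difference -1.07 ± 0.24, adjusted p = 0.00812) and had declined to 279, 177 and 143 CPM in E11.5 controls. Pbx3, at 52.2, 60.0 and 55.3 CPM in the E10.5 controls and 60.8, 49.0 and 57.2 CPM in the E11.5 mutants, was alike. Meis1 and Meis2, the classical proximal factors, had log2 differences of -0.82 ± 0.28 and -0.79 ± 0.29 that did not pass; without mutant replicate 1 the adjusted p of Meis1 was 0.049.

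Among anterior genes, Alx4 was at 103, 100 and 103 CPM in the E10.5 controls and 31.7, 18.7 and 40.0 CPM in the E11.5 mutants. All mutant libraries were below the controls, with a log2 difference of -1.76 ± 0.26 (SE, adjusted p = 0.000338), and E11.5 controls were at 81.2, 43.3 and 48.4 CPM. Irx3 was at 109, 101 and 83.4 CPM in the E10.5 controls and 34.1, 18.3 and 29.8 CPM in the E11.5 mutants (log2 difference -1.84 ± 0.42, adjusted p = 0.011), and E11.5 controls, at 68.0, 18.1 and 16.7 CPM, overlapped with the mutants. Gli3, the repressor of the hedgehog response in the anterior limb bud, had -0.54 ± 0.18 (SE, adjusted p = 0.0693), below all control libraries without passing the threshold. Msx2 was higher by 0.59 ± 0.14 (SE, adjusted p = 0.0144), a call lost without control replicate 2, control replicate 3 or mutant replicate 3 (adjusted p = 0.0527, 0.0584 and 0.0780).

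Of 13 posterior and hedgehog response genes 3 rose and 4 fell. Only 1 rose on leaving out mutant replicate 1 or 2 or any of the E10.5 control replicates, and 2 fell without mutant replicate 1. Shh (chromosome 5, 28456815 to 28467256, mm10), the signal of the posterior organising region, was at 18.1, 19.9 and 15.6 CPM in the E10.5 controls and 0.633, 2.06 and 7.49 CPM in the E11.5 mutants. The mutant libraries were all below the controls but far apart from each other, and the log2 difference of -2.40 ± 0.81 (SE, adjusted p = 0.0793) did not pass. Without mutant replicate 3 it was -3.70 with adjusted p = 0.0124. E11.5 controls ranged as widely, at 7.33, 0.791 and 0.572 CPM. Hhip, a hedgehog target gene, rose by 0.96 ± 0.29 (SE, adjusted p = 0.0436), a call that no leave-one-out fit kept (adjusted p = 0.0689 to 0.165). Ptch1 was at 138, 142 and 99.5 CPM in the E10.5 controls and 127, 192 and 178 CPM in the E11.5 mutants, with overlap and 0.39 ± 0.24 (SE, adjusted p = 0.396), and Gli1 had 0.53 ± 0.26 (SE, adjusted p = 0.239). Osr1 fell, at 44.5, 48.8 and 43.5 CPM in the E10.5 controls and 28.9, 19.8 and 19.0 CPM in the E11.5 mutants (log2 difference -1.02 ± 0.20, adjusted p = 0.00399). Hand2, which acts upstream of Shh, was at 154, 172 and 148 CPM in the E10.5 controls and 73.6, 129.9 and 73.0 CPM in the E11.5 mutants, a log2 difference of -0.78 ± 0.18 (SE, adjusted p = 0.00987). The Hand2 call was lost without mutant replicate 1 or 3 (adjusted p = 0.0587 and 0.0577) and with the 6 libraries alone.

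Of 10 genes of the Hoxd cluster 2, Hoxd13 and Evx2, rose against E10.5 controls and 1 fell, and the list median was -0.47. With the 6 libraries alone neither rise passed (adjusted p = 0.0943 and 0.0664). Hoxd13 (chromosome 2, 74668310 to 74671599, mm10), which specifies the digits, was at 110.3, 132 and 95.4 CPM in the E10.5 controls and 209, 415 and 182 CPM in the E11.5 mutants. The mutant libraries were above the controls, with a log2 difference of 1.25 ± 0.28 (SE, adjusted p = 0.00871), and overlapped with the E11.5 controls, at 218, 340.4 and 459 CPM. Leaving out control replicate 3 gave 1.15 with adjusted p = 0.0525, and leaving out mutant replicate 2 gave 0.80 with adjusted p = 0.0599, neither of which passed. Its neighbour Evx2 was at 3.67, 7.96 and 3.77 CPM in the E10.5 controls and 23.8, 50.5 and 14 CPM in the E11.5 mutants, a log2 difference of 2.52 ± 0.47 (SE, adjusted p = 0.00259), with 24.7, 43.8 and 51.6 CPM in E11.5 controls. Hoxa13 was at 30.6, 39.1 and 28.5 CPM in the E10.5 controls and 37.9, 72.4 and 33.3 CPM in the E11.5 mutants, with overlap and 0.55 ± 0.28 (SE, adjusted p = 0.273).

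Several other genes of the Hoxa and Hoxd clusters were lower than in E10.5 controls. Hoxd9 was at 73.8, 73.9 and 96.9 CPM in the E10.5 controls and 24.2, 29.9 and 55.0 CPM in the E11.5 mutants (log2 difference -1.17 ± 0.28, adjusted p = 0.013). Hoxa11, of the forearm, was at 95.02, 95.8 and 109 CPM in the E10.5 controls and 43.2, 56.4 and 63.6 CPM in the E11.5 mutants (log2 difference -0.88 ± 0.22, adjusted p = 0.0179), and Hoxa9 fell by 0.75 ± 0.19 (SE, adjusted p = 0.0151), all with no overlap of libraries. Each of these 3 calls was lost without control replicate 3 or without mutant replicate 1, at adjusted p values of 0.0647 to 0.0986, that of Hoxd9 also without mutant replicate 2 (0.0634) and that of Hoxa9 without mutant replicate 3 (0.0757). The Hoxd9 call was also lost with the 6 libraries alone. Hoxa10 was at 147, 162 and 184 CPM in the E10.5 controls and 84.0, 132 and 88.2 CPM in the E11.5 mutants; its log2 difference of -0.69 ± 0.21 (SE, adjusted p = 0.0431) did not pass when any library but mutant replicate 2 was left out, at adjusted p values of 0.0658 to 0.183. In all, 2 Hoxd cluster genes rose and 1 of 10 fell, and 3 of 11 Hoxa genes fell. The Hoxa median was -0.51 against E10.5 controls, 0.04 against E11.5 controls and -0.47 between the control stages. For the Hoxd cluster these medians were -0.47, -0.37 and -0.35. Against E11.5 controls 1 Hoxa gene was higher and 1 lower, and 1 Hoxd gene was higher and none lower.

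The apical ectodermal ridge is the epithelial rim that secretes FGFs and in which Prrx1-Cre is not active. Of 14 ridge genes 8 rose and none fell, with a median of 1.04. Dlx3 was at 9.08, 10.97 and 8.01 CPM in the E10.5 controls and 31.0, 22.4 and 36.8 CPM in the E11.5 mutants, Dlx2 at 12.4, 14.4 and 10.1 CPM in the E10.5 controls and 32.0, 30.1 and 49.1 CPM in the E11.5 mutants. Both were above all control libraries, with log2 differences of 1.68 ± 0.23 (SE, adjusted p = 0.000166) and 1.59 ± 0.20 (SE, adjusted p = 0.000101), and E11.5 controls were at 13.3, 12.8 and 14.7 CPM and 15.1, 14.5 and 13.9 CPM. Dlx1 rose by 1.46 ± 0.18 (SE, adjusted p = 9.15e-05). Fgf9 was at 4.33, 7.80 and 5.58 CPM in the E10.5 controls and 21.6, 18.9 and 13.4 CPM in the E11.5 mutants, a log2 difference of 1.61 ± 0.21 (SE, adjusted p = 0.00014). Fgf8, the main ridge signal, was at 40.0, 54.8 and 43.9 CPM in the E10.5 controls and 40.7, 47.8 and 101 CPM in the E11.5 mutants, with overlap and 0.45 ± 0.33 (SE, adjusted p = 0.494), while E11.5 controls had declined to 20.3, 10.4 and 12.9 CPM, for a stage-matched log2 difference of 2.12 (adjusted p = 0.000593). The count of 8 was 5 without control replicate 3.

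Markers of surface ectoderm moved with the ridge genes: 4 of 19 rose, none fell, and their summed level was 484 to 684 CPM in E10.5 controls and 911 to 1166 CPM in E11.5 mutants. Krt5, a basal keratin gene, was at 77.7, 135 and 81.3 CPM in the E10.5 controls and 353, 328 and 391 CPM in the E11.5 mutants, a log2 difference of 1.87 ± 0.28 (SE, adjusted p = 0.000392). Krt15 rose by 2.00 ± 0.38 (SE, adjusted p = 0.00259), and E11.5 controls were at 16.7, 30.6 and 36.2 CPM. Epcam and Cdh1 had 0.67 ± 0.22 and 0.58 ± 0.28 and did not pass. The count of 4 was 2 without control replicate 3. The part of this ectoderm level in the ridge result was not tested.

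Of 16 genes of the FGF response and the distal mesenchyme 3 rose, 2 fell and 12 were alike. On leaving out mutant replicate 2 or any of the E10.5 control replicates 1 rose, and without control replicate 3 only 1 fell. Dusp6, the feedback phosphatase gene, was at 236, 235 and 260.3 CPM in the E10.5 controls and 208, 282 and 256 CPM in the E11.5 mutants, with overlap and a 95% interval of -0.23 to 0.29; E11.5 controls were at 205, 174 and 183 CPM. Spry1 was at 61.3, 59.9 and 61.9 CPM in the E10.5 controls and 57.9, 63.7 and 73.0 CPM in the E11.5 mutants, likewise alike. Etv4 was at 68.2, 66.0 and 81.4 CPM in the E10.5 controls and 125, 147 and 138 CPM in the E11.5 mutants, above all controls of both stages (61.6, 56.2 and 52.7 CPM at E11.5), with a log2 difference of 0.93 ± 0.14 (SE, adjusted p = 0.000526). Cyp26b1, which clears retinoic acid from the distal bud, was at 225, 252 and 278 CPM in the E10.5 controls and 79.1, 161 and 84.7 CPM in the E11.5 mutants (log2 difference -1.22 ± 0.22, adjusted p = 0.00206). With the 6 libraries alone the Cyp26b1 call was lost. Wnt5a, at 187, 207 and 183 CPM in the E10.5 controls and 162, 272 and 169 CPM in the E11.5 mutants, was alike to E10.5 controls, and E11.5 controls were at 292, 319 and 355 CPM.

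Muscle genes, from cells that enter the limb bud and lack Prrx1-Cre, were near the level of same-stage controls. Of 21 muscle markers 15 rose and none fell against E10.5 controls (median 2.65), and against E11.5 controls 3 were higher, none was lower and the median was -0.11. Myod1 (chromosome 7, 46376474 to 46379099, mm10), a determination factor gene of muscle, was at 4.39, 8.07 and 5.999 CPM in the E10.5 controls and 85.6, 89.9 and 29.6 CPM in the E11.5 mutants. Every mutant library exceeded every E10.5 control library, and E11.5 controls were at 39.3, 61.5 and 60.7 CPM. The log2 difference was 3.48 ± 0.47 (SE, adjusted p = 0.000197) from E10.5 and 0.34 (adjusted p = 0.627) from E11.5 controls. Pax7, of the muscle precursors, was at 1.27, 2.06 and 0.937 CPM in the E10.5 controls and 18.7, 9.15 and 15.7 CPM in the E11.5 mutants, a log2 difference of 3.35 ± 0.47 (SE, adjusted p = 0.000211), and Tnnt1, a slow troponin gene, at 5.88, 4.74 and 6.38 CPM in the E10.5 controls and 60.0, 53.03 and 27.9 CPM in the E11.5 mutants (log2 difference 3.05 ± 0.39, adjusted p = 0.000108).

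Myog, the myogenin gene, was at 9.66, 4.76 and 9.61 CPM in the E10.5 controls and 97.4, 87.5 and 42.6 CPM in the E11.5 mutants and at 49.7, 80.3 and 92.0 CPM in E11.5 controls. Its log2 difference of 3.24 ± 0.94 (SE, adjusted p = 0.0457) had a wide interval, 1.21 to 5.27, and without any of the libraries except mutant replicate 3 its adjusted p was 0.0957 to 0.161. Lbx1, of migrating precursors, was above both control stages, at 31.8, 29.8 and 28.7 CPM in the E10.5 controls and 88.2, 62.4 and 69.5 CPM in the E11.5 mutants (log2 difference 1.28 ± 0.26, adjusted p = 0.0047) and 21.2, 16.9 and 16.6 CPM in E11.5 controls. Mutant replicate 3 was the lowest mutant library for Myod1, Myog, Tnnt1 and Actc1. The summed marker level was 152 to 198 CPM in E10.5 controls, 505 to 892 CPM in E11.5 mutants and 426 to 960 CPM in E11.5 controls.

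Some glial and smooth muscle genes also differed from the younger controls. Ngfr, a receptor gene of the neural crest and Schwann lineage, was at 22.7, 17.2 and 19.6 CPM in the E10.5 controls and 52.1, 60.5 and 44.8 CPM in the E11.5 mutants, a log2 difference of 1.41 ± 0.20 (SE, adjusted p = 0.000195), and at 47.8, 69.2 and 88.2 CPM in E11.5 controls. Of 11 Schwann cell and neuron markers 3 rose and none fell. Isl1, a transcription factor gene of motor neurons and of early limb mesenchyme, was at 1.27, 2.24 and 1.22 CPM in the E10.5 controls and 17.5, 13.8 and 12.04 CPM in the E11.5 mutants, and E11.5 controls were at 2.39, 3.77 and 3.01 CPM. Its log2 difference of 3.20 ± 0.41 (SE, adjusted p = 9.66e-05) put it above both control stages. Acta2, of smooth muscle and early skeletal muscle, was at 4.74, 2.77 and 7.27 CPM in the E10.5 controls and 83.7, 65.3 and 33.6 CPM in the E11.5 mutants, a log2 difference of 3.62 ± 0.65 (SE, adjusted p = 0.00268), with 50.5, 105 and 118 CPM in E11.5 controls. Pdgfrb, a pericyte receptor gene that limb mesenchyme also expresses, was at 186, 182 and 200.5 CPM in the E10.5 controls and 102, 112 and 105 CPM in the E11.5 mutants (log2 difference -0.83 ± 0.13, adjusted p = 0.000395).

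Macrophage markers were above both control stages. All 18 rose against E10.5 controls (median 2.72), and 13 of 18 were higher than in E11.5 controls. C1qa (chromosome 4, 136895917 to 136898803, mm10), a complement gene of tissue macrophages, was at 1.11, 1.02 and 1.16 CPM in the E10.5 controls and 28.2, 15.9 and 8.27 CPM in the E11.5 mutants. The lowest mutant library was above the highest E11.5 control, at 2.53, 5.93 and 4.45 CPM, and the log2 difference from E10.5 controls was 3.99 ± 0.53 (SE, adjusted p = 0.000128). Csf1r, the receptor gene for the macrophage growth factor, was at 5.08, 7.20 and 5.002 CPM in the E10.5 controls and 43.8, 30.6 and 20.6 CPM in the E11.5 mutants, a log2 difference of 2.46 ± 0.37 (SE, adjusted p = 0.000365), with 10.3, 12.5 and 14.7 CPM in E11.5 controls. C1qb and C1qc rose by 3.13 ± 0.45 and 3.35 ± 0.50. In each of these 4 genes mutant replicate 1 was the highest and replicate 3 the lowest mutant library. The summed level was 39.1 to 53.6 CPM in E10.5 controls, 77.2 to 96.2 CPM in E11.5 controls and 163 to 335 CPM in E11.5 mutants. On the authors' log2 FPKM values limma called 8 of the 18, and 7 of 7 remained under a filter at a mean log2 CPM of 1.

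Blood markers varied between libraries. Of 14 erythroid genes 1 rose, the adult globin gene Hbb-bs. It was at 3.85, 12.7 and 6.46 CPM in the E10.5 controls and 93.6, 58.5 and 36.1 CPM in the E11.5 mutants (log2 difference 3.04 ± 0.70, adjusted p = 0.0133); the call was lost without control replicate 1 or 3 (highest adjusted p 0.0656). The embryonic globin gene Hbb-y was at 1148, 2396 and 1467 CPM in the E10.5 controls and 4474, 2931 and 1733 CPM in the E11.5 mutants, with overlap. The summed erythroid level was 3012 to 6233 CPM in E10.5 controls and 4012 to 9319 CPM in E11.5 mutants. No platelet marker of 9 passed, and at unadjusted p under 0.05 the fit counted 1 of them, Pf4, at 1.01 ± 0.47.

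Of 21 endothelial markers 1 rose, 2 fell and 18 were alike to E10.5 controls. The mutant mean was nearer to E10.5 than to E11.5 controls for 9 of the 21, and the list median was -0.11 against E10.5 and -0.01 against E11.5 controls. Eng, the endoglin gene, rose and was still alike by the 2-fold definition, and was at 28.9, 27.1 and 32.8 CPM in the E10.5 controls and 48.8, 40.9 and 42.0 CPM in the E11.5 mutants, a log2 difference of 0.57 ± 0.12 (SE, adjusted p = 0.00613). Esm1, a gene of sprouting tip cells, was at 3.18, 5.72 and 4.90 CPM in the E10.5 controls and 1.97, 1.18 and 0.220 CPM in the E11.5 mutants, and its libraries did not overlap (log2 difference -2.03 ± 0.45, adjusted p = 0.00748). With the 6 libraries alone the Esm1 call was lost. Sox7 fell by 0.69 ± 0.17 (SE, adjusted p = 0.0131), a call lost without control replicate 3 or mutant replicate 3 (adjusted p = 0.0732 and 0.0655). Kdr, the VEGF receptor gene, was at 81.0, 72.7 and 75.6 CPM in the E10.5 controls and 61.0, 58.7 and 55.7 CPM in the E11.5 mutants, below the controls in each library, and its log2 difference of -0.39 ± 0.15 (SE, adjusted p = 0.137) did not pass; with the spread from the 6 libraries alone the adjusted p was 0.00727. Pecam1 and Cdh5 were alike, at -0.20 ± 0.12 and -0.15 ± 0.15. Summed over the list, levels were 615 to 685 CPM in E10.5 controls, 546 to 664 CPM in E11.5 mutants and 573 to 631 CPM in E11.5 controls, so the mutant range overlapped with both.

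Hypoxia and glycolysis genes were alike to E10.5 controls in 13 of 16 cases. Egln3, an oxygen-sensing hydroxylase gene, was at 4.59, 4.23 and 5.14 CPM in the E10.5 controls and 12.7, 8.40 and 8.12 CPM in the E11.5 mutants and was the 1 gene that rose (log2 difference 1.06 ± 0.22, adjusted p = 0.00509). Slc2a1, the glucose transporter gene, was at 134, 141 and 149 CPM in the E10.5 controls and 166, 127 and 131 CPM in the E11.5 mutants and Pfkl at 316, 301 and 304 CPM in the E10.5 controls and 295, 268 and 319 CPM in the E11.5 mutants. Vegfa was at 80.0, 63.7 and 80.5 CPM in the E10.5 controls and 78.1, 50.6 and 54.1 CPM in the E11.5 mutants, with overlap and -0.29 ± 0.15 (SE, adjusted p = 0.262); without mutant replicate 1 it was -0.51 with adjusted p = 0.0278. Among thrombospondins and their receptors, Cd36, a scavenger receptor gene, was at 1.03, 0.820 and 0.737 CPM in the E10.5 controls and 9.01, 6.68 and 3.16 CPM in the E11.5 mutants (log2 difference 2.86 ± 0.46, adjusted p = 0.000636), and Sirpa rose by 0.66 ± 0.10 (SE, adjusted p = 0.000618). Both are also expressed by macrophages, whose markers moved with them, and the part of macrophages in these 2 results was not tested. Thbs1 was at 56.4, 72.5 and 46.7 CPM in the E10.5 controls and 73.9, 65.2 and 66.7 CPM in the E11.5 mutants, alike, while E11.5 controls were at 152, 145 and 147 CPM. Cd47 was at 21.5, 18.4 and 17.3 CPM in the E10.5 controls and 24.8, 20.5 and 17.9 CPM in the E11.5 mutants, with a 95% interval of -0.15 to 0.43. None of 12 mitochondrially encoded genes passed, with 2 at unadjusted p under 0.05 and a median of 0.27.

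The largest single changes outside these lists had similar patterns. Among the rises, Ltb4r2, a leukotriene receptor gene, was at 0.369, 0.621 and 0.638 CPM in the E10.5 controls and 8.77, 7.05 and 14.1 CPM in the E11.5 mutants, a log2 difference of 4.20 ± 0.33 (SE, adjusted p = 1.09e-06), with 1.26, 0.685 and 0.895 CPM in E11.5 controls. It was above both control stages. Synpo2l and Fgfr4, both expressed in muscle cells, were at 2.05, 2.28 and 3.53 against 37.4, 37.3 and 22.5 CPM and 2.60, 3.30 and 2.95 against 46.9, 39.7 and 19.4 CPM, with log2 differences of 3.62 ± 0.46 and 3.58 ± 0.31. Synpo2l of E11.5 controls, at 20.3, 31.4 and 37.9 CPM, covered the mutant range. Col17a1, a hemidesmosome collagen gene of basal epithelium, was at 4.90, 8.95 and 5.14 CPM in the E10.5 controls and 54.7, 63.3 and 64.2 CPM in the E11.5 mutants (log2 difference 3.26 ± 0.43, adjusted p = 0.000136), and at 15.7, 35.9 and 58.1 CPM in E11.5 controls.

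Among the falls, several genes had declined in controls as well. Gbx2 was at 3.69, 2.84 and 4.70 CPM in the E10.5 controls and 0.414, 0.347 and 0.661 CPM in the E11.5 mutants, a log2 difference of -2.99 ± 0.37 (SE, adjusted p = 7.19e-05), and E11.5 controls were at 0.796, 0.264 and 0.323 CPM. The mutants thus overlapped with controls of their own stage. Rspo4, an R-spondin gene, was at 44.8, 31.9 and 40.0 CPM in the E10.5 controls and 4.505, 2.06 and 12.4 CPM in the E11.5 mutants (log2 difference -2.63 ± 0.55, adjusted p = 0.00706) and at 12.5, 3.95 and 3.26 CPM in E11.5 controls. The Rspo4 call was lost with the 6 libraries alone. Hgf, which guides migrating muscle precursors, was at 17.0, 14.7 and 14.6 CPM in the E10.5 controls and 2.44, 2.85 and 4.82 CPM in the E11.5 mutants (log2 difference -2.20 ± 0.28, adjusted p = 9.66e-05), with 5.22, 4.37 and 5.29 CPM in E11.5 controls, and Dpep1 had -2.41 ± 0.26 (SE, adjusted p = 2.36e-05), with -1.91 (adjusted p = 0.000344) between the control stages. Ildr2 had -2.13 ± 0.36 (SE, adjusted p = 0.00102) and -1.16 (adjusted p = 0.0432). Gsc, the goosecoid gene, was at 42.2, 36.2 and 38.3 CPM in the E10.5 controls and 8.25, 3.06 and 7.95 CPM in the E11.5 mutants (log2 difference -2.60 ± 0.42, adjusted p = 0.00072), below E11.5 controls at 23.6, 14.4 and 14.6 CPM, while its change between the control stages did not pass, at -1.15 (adjusted p = 0.0823).

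In other genes the mutants were below both control stages. Gpr4 was at 15.9, 16.1 and 17.6 CPM in the E10.5 controls and 4.55, 3.56 and 3.91 CPM in the E11.5 mutants, a log2 difference of -2.04 ± 0.19 (SE, adjusted p = 7.02e-06), and at 14.9, 12.7 and 12.1 CPM in E11.5 controls. Abca8b, a transporter gene, was at 6.07, 6.27 and 5.48 CPM in the E10.5 controls and 1.41, 1.599 and 1.32 CPM in the E11.5 mutants (log2 difference -2.04 ± 0.23, adjusted p = 2.75e-05), with 5.43, 5.32 and 7.11 CPM in E11.5 controls. Sned1, a matrix protein gene, was at 75.9, 63.4 and 90.1 CPM in the E10.5 controls and 15.7, 23.2 and 10.1 CPM in the E11.5 mutants (log2 difference -2.22 ± 0.31, adjusted p = 0.000235). For Gpr4, Abca8b and Sned1 the 3 mutant libraries lay below all 6 control libraries of E10.5 and E11.5.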

How the data were processed

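Total RNA of individual mouse forelimb buds was sequenced as strand-specific paired reads in 18 libraries, 3 for each genotype and stage. The authors deposited raw counts per gene, made with featureCounts 1.6.4 over exons of the GENCODE M22 annotation on mm10 with reverse-strand counting, per the file headers. The submitters' processing notes also name cutadapt, STAR and limma without versions. The authors' deposited log2 FPKM values served only in an alternative fit.

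From the counts, genes with enough reads for edgeR's filterByExpr (20118 of 55487 annotated) were scaled by TMM and fitted with 1 mean per genotype and stage in edgeR 4.0.16 (quasi-likelihood test, R 4.3.3) over all 18 libraries. P-values were adjusted by Benjamini-Hochberg over all genes tested, with a threshold of 0.05. The biological coefficient of variation was 0.231. CPM are counts scaled by TMM library size, errors are the SE of the log2 difference or SD over 3 libraries, and depth limits precision for genes of a few counts.

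The comparison and gene lists were chosen with earlier results of these data known. Genes were named by a rule: 21 anchor genes, the 12 largest rises and 12 largest falls without overlap at a mean log2 CPM of at least 1, from each list the 4 genes of lowest adjusted p, and up to 3 members of each process list nearest to 0 among those alike. The members nearest to 0 had also changed from E9.5 to E11.5 in controls, and their closeness to E10.5 controls follows from the rule. Other list and family members were named after their values were seen. Some list members counted here are not reported by name. Alternatives covered scaling, filtering, DESeq2 1.42.0, limma 3.58.1 (voom and the authors' log2 FPKM), the 6 libraries alone, a replicate block, transcript length and leaving out libraries. The fit was tested on simulated data. No library pair was as close as sampling noise (lowest chi-square per degree of freedom 17.2).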

Additional observations from a re-analysis of the deposited data

Results flagged for a closer look

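The mutant-against-younger-control contrast was also made 1 day earlier, with E10.5 mutants against E9.5 controls, and the change between both was tested for the 21 anchor genes with an interaction term in the edgeR fit, on 12 libraries of 4 groups; for 8 of them the difference passed at adjusted p under 0.05. Each such change holds the change of the mutants from E10.5 to E11.5 and that of the controls from E9.5 to E10.5, which were not separated. Cdkn1a was 4.05 higher at the earlier pair and 2.70 at the later on the log2 scale, a change of -1.35 ± 0.18 (SE, adjusted p = 0.000299). Mdm2 went from 1.31 to 0.84, a change of -0.47 ± 0.12 (adjusted p = 0.0305). The Mdm2 difference did not pass without E9.5 control replicate 1 and E10.5 mutant replicate 3 (-0.36, adjusted p = 0.0713), nor on leaving out replicate 1 or 3 of the E10.5 controls or replicate 1 or 2 of the E11.5 mutants (highest adjusted p 0.0804).

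Among distal and posterior genes, Hoxa13 went from 7.25 to 0.55, a change of -6.70 ± 0.52 (adjusted p = 2.56e-06), and Hoxa13 was at only 0.153 ± 0.126 CPM (SD, n = 3) in E9.5 controls. Hoxd13 went from 3.90 to 1.25, a change of -2.65 ± 0.41 (adjusted p = 0.000871). Shh went from 2.96 to -2.40, a change of -5.36 ± 1.16 (adjusted p = 0.0141), and without the same 2 libraries it was -5.69 (adjusted p = 0.0592).

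Among the cartilage and proximal anchor genes, Sox9, Col2a1 and Shox2 passed this test, while Acan and Tbx18 did not (adjusted p = 0.677 and 0.106). Sox9 went from -0.48 to -2.33, a change of -1.85 ± 0.26 (adjusted p = 0.0004). Col2a1 went from 0.50, which had not passed (adjusted p = 0.119), to -1.57, a change of -2.08 ± 0.31 (adjusted p = 0.000707). Shox2 went from 0.54 to -1.72, a change of -2.25 ± 0.26 (adjusted p = 6.95e-05). The summed cartilage level of controls was 374 to 602 CPM at E9.5 and 947 to 1181 CPM at E10.5. In mutants it was 564 to 605 CPM at E10.5 and 389 to 479 CPM at E11.5. For the proximal list, controls were at 1851 to 2019 and 2198 to 2269 CPM, and mutants at 899 to 1234 and 961 to 1133 CPM.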

How the results depend on the processing

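None of the 1945 genes called between E11.5 mutants and E10.5 controls had the other sign in any of the 17 alternatives, over those with a value (1292 with the stricter filter, 1772 with limma on log2 FPKM, and all elsewhere). The alternatives use the libraries in which these genes were called, so the equal sign was largely fixed by that choice. Counts moved with the setting: the genes higher than in E10.5 controls were 760 with a filter at a mean log2 CPM of 1, 1922 without E9.5 control replicate 1 and E10.5 mutant replicate 3, and 690 to 1054 when 1 library was left out. The genes lower were 1164 with the 6 libraries alone, 1443 without those 2 libraries and 434 to 558 when 1 was left out. With the interval held within 1.5-fold, 7360 genes were alike. Against E11.5 controls the counts without the 2 libraries were 2883 higher and 3054 lower, and 1058 to 1482 and 1155 to 1770 with 1 library left out. Between control stages they were 2196 and 1533, and 591 to 1382 and 212 to 613; the lower count was 378 with no filter and 1027 with the length trend removed. At E9.5, 20 genes were higher in mutants with the stricter filter and 115 with DESeq2. The cause of these shifts was not tested. For the shifted comparison DESeq2 counted 1595 and 992 and limma-voom 1271 and 817 genes higher and lower.

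Libraries were not paired by replicate number in the main fit. Deviations of same-numbered libraries of the E11.5 mutants and E10.5 controls correlated at -0.027, -0.012 and -0.038. These correlations come from the compared groups alone and cannot show whether libraries shared a batch. With a replicate block 1103 genes were higher and 667 lower. For 226 genes followed over the alternatives, 157 tests lost and 73 gained a call and 3583 kept theirs. Genes of a few counts have wide intervals at this depth.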

Other observations

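Some gene families outside the lists, chosen after values were seen, held called genes between E11.5 mutants and E10.5 controls; of all genes 5.98% were higher and 3.68% lower. Of 83 cytosolic ribosomal protein genes 0 were called by edgeR, DESeq2 or limma-voom, with 1 at an unadjusted p under 0.05 in each, and of 44 clustered protocadherin genes 1 fell. Of 22 ephrin and Eph receptor genes 7 fell and 1 rose. Efnb3, the gene for ephrin-B3, was at 132, 135 and 146 CPM in the E10.5 controls and 59.7, 57.0 and 51.3 CPM in the E11.5 mutants, a log2 difference of -1.30 ± 0.10 (SE, adjusted p = 6.46e-07), and E11.5 controls were at 146, 125 and 134 CPM. Of 20 semaphorin genes 4 fell and 2 rose, among the falls Sema7a, at 7.38, 9.20 and 10.6 CPM in the E10.5 controls and 4.33, 3.01 and 3.11 CPM in the E11.5 mutants (log2 difference -1.38 ± 0.18, adjusted p = 0.000123). Of 9 BMP genes 2 rose and 2 fell. Bmp3 was at 4.02, 5.39 and 3.39 CPM in the E10.5 controls and 0.779, 1.12 and 0.318 CPM in the E11.5 mutants (log2 difference -2.51 ± 0.42, adjusted p = 0.000874), below E11.5 controls at 7.52, 6.56 and 7.13 CPM. Of 17 Wnt genes 5 rose and 3 fell, and Wnt16 was at 3.08, 2.17 and 2.65 CPM in the E10.5 controls and 0.0487, 0.116 and 0.245 CPM in the E11.5 mutants.

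Of 12 cathepsin genes 6 rose and none fell. Ctsb, a lysosomal protease gene, was at 129.8, 143 and 125 CPM in the E10.5 controls and 321, 261 and 211 CPM in the E11.5 mutants (log2 difference 0.995 ± 0.15, adjusted p = 0.00036), and Ctsd at 51.7, 57.2 and 53.1 CPM in the E10.5 controls and 118, 100.2 and 76.4 CPM in the E11.5 mutants (log2 difference 0.86 ± 0.18, adjusted p = 0.00566). Mutant replicate 1 was the highest and replicate 3 the lowest for both, the order seen in the macrophage markers, whose part in this result was not tested. Of 8 genes of antigen processing 4 rose, among them Tap1, a peptide transporter gene, at 3.38, 3.61 and 2.69 CPM in the E10.5 controls and 13.8, 15.4 and 18.0 CPM in the E11.5 mutants (log2 difference 2.28 ± 0.23, adjusted p = 1.31e-05), with 3.63, 5.45 and 5.22 CPM in E11.5 controls. Of 9 Hoxc genes 3 rose and none fell, among them Hoxc13, at 2.05, 4.61 and 2.87 CPM in the E10.5 controls and 11.8, 10.2 and 15.1 CPM in the E11.5 mutants (log2 difference 1.96 ± 0.42, adjusted p = 0.00607).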
